A study of Mus musculus with 36 samples.

Results

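Carbonic anhydrases are zinc enzymes that interconvert carbon dioxide and bicarbonate. Car2 and Car3 are cytosolic, Car4 is anchored to the outer face of membranes and Car14 spans the membrane, Car5b is imported into mitochondria, and Car8 is a cytosolic relative that lacks catalytic activity and binds the inositol trisphosphate receptor. Car3 is a slow enzyme that is abundant in skeletal muscle, liver and fat, Car2 is a fast enzyme of many tissues including red blood cells, and Car4 lies on capillaries and on the muscle membrane.

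The data described here are the transcript levels of these 6 genes, taken by name from the 51912 gene IDs of 2 count tables. They were chosen because Car3 had been reported as a target of MuSK-BMP signaling and rose in the mutant soleus, so the genotype comparison in the soleus entered the choice and is given below as a description without a test. RNA-seq was done on whole TA (tibialis anterior, a fast muscle) and whole soleus (a muscle rich in slow fibers) of C57BL/6 mice at 3 months of age. Each muscle was taken from WT and from ∆Ig3-MuSK mice, which gave 4 groups of 9 libraries. ∆Ig3-MuSK mice are homozygous for a germline deletion, made with CRISPR-Cas9, of the MuSK exons that encode the BMP-binding Ig3 domain. Every cell of the animal therefore carries it. In cultured myoblasts of this genotype treated with BMP4, the paper reported lower Car3 transcript levels than in WT, measured by quantitative RT-PCR. The rise of Car3 in the mutant soleus, in whole muscle, ran in the other direction. In the labels, all soleus libraries were made with the NEBNext Ultra kit and all TA libraries with the Ultra II kit, so muscle and kit cannot be told apart.

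Between 43492062 and 78660422 reads were counted per library. Musk itself is detected on the whole gene, and its counts include exons outside the deletion, so they do not check the labels. Musk lay at 4.28 ± 0.966 CPM (counts scaled to library size with TMM factors, mean ± SD, n = 9) in WT TA and 3.09 ± 0.376 in ∆Ig3-MuSK TA. In the soleus it lay at 15.1 ± 1.79 CPM in WT and 11.2 ± 3.30 in ∆Ig3-MuSK. The slow fiber list of 10 genes, among them Myh7 and Tnnt1, summed to between 22482 and 32236 CPM in the soleus libraries and to between 101.8 and 259.4 CPM in the TA, so the labelled muscles carried their markers. WT soleus libraries 1 and 2 stood apart in the fast fiber list of 10 genes, with summed levels of 44377 and 41196 CPM against 20281 to 29271 in the other 7.

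Car3 (chr3:14863512-14872523, plus strand, GRCm38) and Car2 (chr3:14886273-14900770, plus strand) are neighbors on chromosome 3. Car14 (chr3:95897768-95904691, minus strand) lies farther along the same chromosome, and Car4 (chr11:84957786-84966044, plus strand), Car8 (chr4:8143362-8239041, minus strand) and Car5b (chrX:163976822-164027997, minus strand) are elsewhere. A stretch of coding sequence is shown because Car3 was far more abundant than its relatives, so that it matters whether its reads could have been counted on them. The stretch of 42 bases with the highest summed identity to Car3 that aligned without gaps in all 6 genes is printed 5′ to 3′ on the coding strand, with bases that differ from Car3 in capitals. It was read from the GENCODE M21 principal transcripts and lies within exon 3 of Car3, Car2 and Car8 and exon 4 of Car4, Car5b and Car14.
Car3: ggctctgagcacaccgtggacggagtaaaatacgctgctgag
Car2: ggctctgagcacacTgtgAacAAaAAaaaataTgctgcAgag
Car5b: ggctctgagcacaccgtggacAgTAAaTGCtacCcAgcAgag
Car4: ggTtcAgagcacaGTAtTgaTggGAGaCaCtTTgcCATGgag
Car14: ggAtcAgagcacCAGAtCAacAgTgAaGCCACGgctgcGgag
Car8: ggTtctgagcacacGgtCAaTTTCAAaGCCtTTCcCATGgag
In Car3 it spans chr3:14866880-14866921, bases 310 to 351 of the coding sequence. Car2 differed from Car3 there at 8 bases, Car5b at 10, Car4 and Car14 at 18 each and Car8 at 20. Over the aligned coding sequence, identity to Car3 was 63.6% in Car2 and between 51.4% and 54.5% in the other 4. The longest run that a whole transcript shared with Car3 was 21 bases, in Car5b, within the stretch shown. None of the 5 shared a run of 50 bases with Car3. Car14 shares 445 exonic bases with Aph1a (encoded on the other strand), and because the library preparation did not keep strand, reads there cannot be assigned to one gene.

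Car3 was the dominant carbonic anhydrase transcript of both muscles. Per kilobase of annotated exon it reached a mean level of 584 ± 103 CPM per kilobase in WT TA and 485 ± 132 in WT soleus. Across the 36 libraries it made up between 93.9% and 97.8% of the summed per-kilobase level of all 16 annotated carbonic anhydrases on the lists used. It ranked between place 99 and place 170 of all genes on that scale. Car14 followed at 7.98 CPM per kilobase in WT TA and 8.71 in WT soleus, and Car5b was the lowest of the 6, at 0.135 and 0.277. In raw counts, Car3 had at least 46898 in each library and Car5b between 24 and 188, so counting error weighs more on Car5b than on the others. All 6 genes passed the filter on low counts in every fit.

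**Figure D1:**
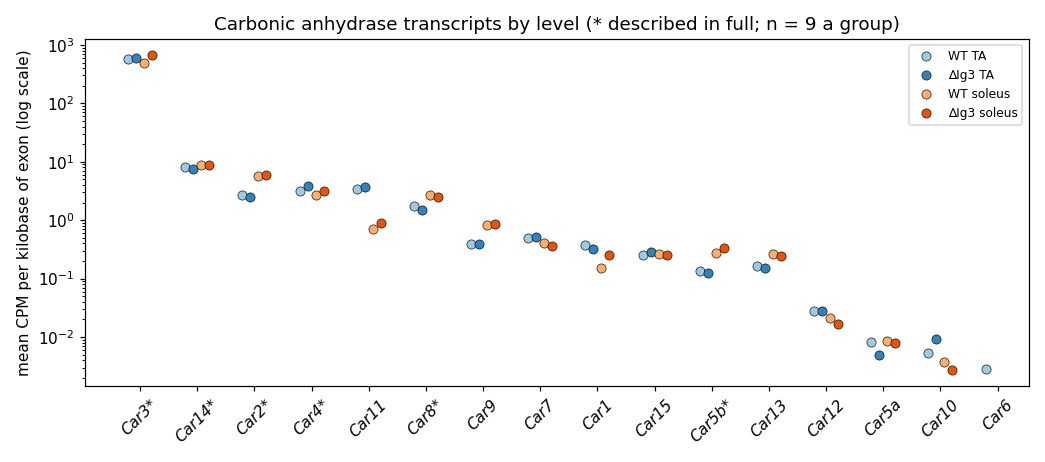
Mean level of each carbonic anhydrase transcript per kilobase of exon (log scale, CPM per kilobase) in the 4 groups of 9 libraries, with the 6 genes described in full marked by a star. Car3 lies far above all others in each group, Car11 is lower in the soleus, and Car6 was at 0 in 3 groups and is drawn for WT TA alone.

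Car3, the cytosolic enzyme the choice of genes turned on, had similar levels in the TA of both genotypes. In WT TA it ranged from 1303 to 2290 CPM with a median of 1600, and in ∆Ig3-MuSK TA from 1311 to 2374 with a median of 1692. The ranges overlapped over nearly their whole width, and 0.0288% of all genes tested had no overlap between these groups. The log2 fold change of ∆Ig3-MuSK against WT TA was 0.03 with an SE of 0.11 (95% interval −0.19 to 0.26, edgeR quasi-likelihood test, Benjamini-Hochberg adjusted over all genes, adjusted p = 0.859).

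In the soleus, which entered the choice, Car3 ranged from 975.3 to 2172 CPM in WT with a median of 1350, and from 1525 to 2569 in ∆Ig3-MuSK with a median of 2042. All 9 ∆Ig3-MuSK values lay above the WT mean, but only 1 lay above the highest WT value, so the groups overlapped; 0.0672% of genes had no overlap here. The 2 highest WT values, 2172 and 1715 CPM, belonged to libraries 1 and 2, the ones with high fast fiber sums. The means were 1391 ± 379 and 1953 ± 315 CPM (SD, n = 9), and the fitted log2 fold change was 0.48 with an SE of 0.13. Whole muscle was sequenced, so more cells that hold Car3 and more Car3 RNA per cell cannot be told apart.

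The order of Car3 from lowest to highest mean was WT soleus, WT TA, ∆Ig3-MuSK TA and ∆Ig3-MuSK soleus, and each neighboring pair overlapped. Because the soleus libraries entered the choice of Car3, this order follows in part from it. The differences of Car3 between the muscles are therefore descriptions without a test. Car3 was listed as a slow-fiber gene when it was chosen, but its level in whole muscle was not higher in the WT soleus than in the WT TA. The fitted log2 difference of WT soleus against WT TA was −0.25 with an SE of 0.13, and that of the mutants was 0.21 with an SE of 0.13. The WT difference was −0.31 by limma-voom, −0.34 with the block by label number and −0.42 without WT soleus libraries 1 and 2. Limma-voom called Car3 lower in WT soleus, but nothing is read from that call, because these libraries entered the choice. By contrast, the 10 slow fiber genes were all called higher in WT soleus, by 2.83 to 10.3 on the log2 scale. Tpm3 was higher by 6.84 and Tnnt1 by 8.90, both muscle filament genes of slow fibers. Pvalb, a calcium buffer of fast fibers, was at −4.73, and 9 of 10 fast fiber genes were called lower.

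**Figure D2:**
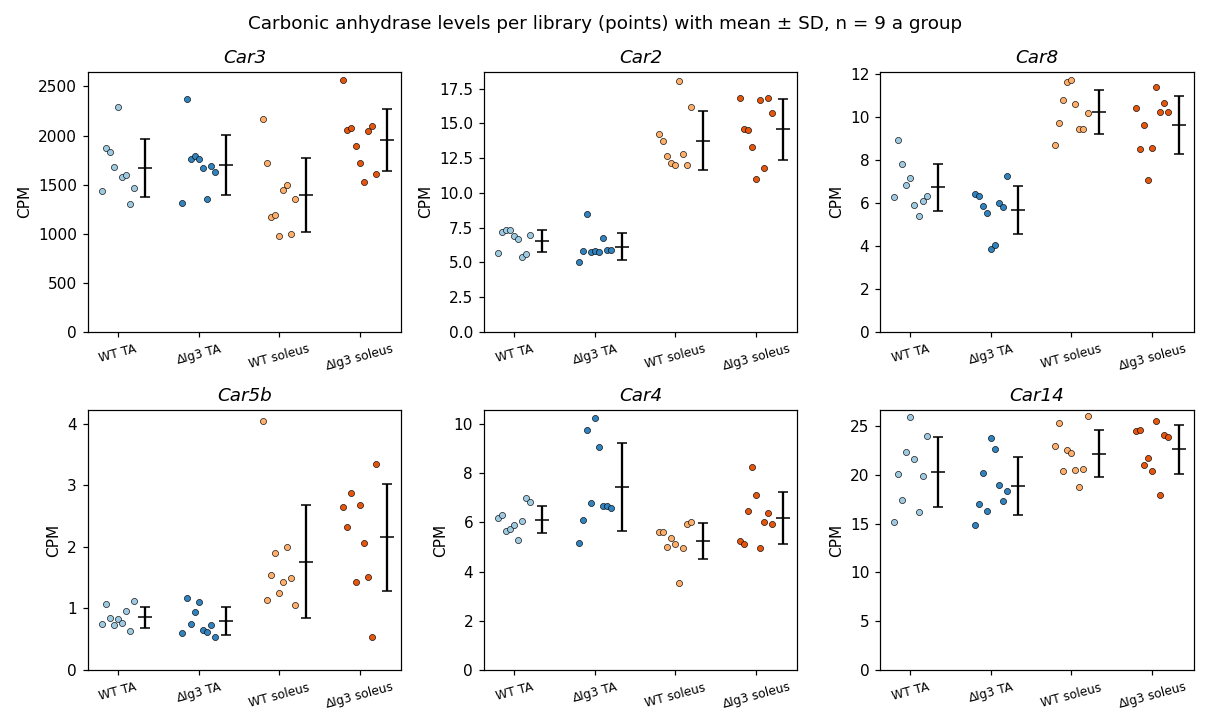
Level of the 6 carbonic anhydrases (CPM, axes from 0) in each library of the 4 groups, with the mean and SD beside the points. The TA and soleus points of Car2 do not overlap, and the ∆Ig3-MuSK soleus points of Car3 all lie above the WT soleus mean of 1391 CPM.

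Car2, the fast cytosolic enzyme, was 2.12-fold higher in WT soleus than in WT TA. In WT it ranged from 5.36 to 7.35 CPM with a median of 6.87 in the TA, and from 12.0 to 18.1 with a median of 12.8 in the soleus. In ∆Ig3-MuSK TA it lay between 5.01 and 8.48 (median 5.81), and in ∆Ig3-MuSK soleus between 10.98 and 16.9 (median 14.6). Every soleus library lay above every TA library, within each genotype and between them. The log2 fold change of WT soleus against WT TA was 1.09 with an SE of 0.10 (edgeR quasi-likelihood test over 36 libraries, adjusted p = 1.4e-12), and that of the mutants was 1.26 (adjusted p = 3.0e-14). Of all genes tested, 28.4% had no overlap between the WT soleus and WT TA libraries, and 29.5% between those of the mutants. The erythroid list of 6 genes was also higher in the soleus, at summed levels of 649.7 to 1141 CPM in WT soleus against 347.5 to 663.9 in WT TA, 595.1 to 2313 in ∆Ig3-MuSK soleus and 369.2 to 701.7 in ∆Ig3-MuSK TA. Hba-a1 (1.08), Alas2 (1.05) and Hba-a2 (0.96) were called higher in WT soleus on the log2 scale, where the 2 near-identical globin genes may share reads. The other 2 genes tested were not called in WT, with the lowest value at 0.21, while all 5 were called higher in the mutant soleus. Car1, the red blood cell enzyme, was lower in WT soleus, at a mean of 0.186 CPM against 0.469 in WT TA. The part of the erythroid list in the Car2 difference was not tested.

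Car8, the relative without catalytic activity, was also higher in the soleus. It ranged from 5.40 to 8.97 CPM in WT TA (median 6.31) and from 8.73 to 11.7 in WT soleus (median 10.2), and 8 of 9 soleus values lay above the highest TA value. In ∆Ig3-MuSK it ranged from 3.86 to 7.24 CPM in TA libraries (median 5.89) and from 7.08 to 11.4 in soleus libraries (median 10.2), again with 8 of 9 above the highest TA value. The log2 fold change was 0.62 with an SE of 0.10 in WT (edgeR, adjusted p = 1.5e-06) and 0.77 in ∆Ig3-MuSK (adjusted p = 2.7e-08).

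Car5b, the mitochondrial enzyme, was called higher in the soleus too, and its level was set beside that of fat cell genes from library to library. It ranged from 0.632 to 1.12 CPM in WT TA (median 0.830) and from 1.05 to 4.04 in WT soleus (median 1.49). Mutant TA libraries lay between 0.535 and 1.17 CPM (median 0.739) and mutant soleus libraries between 0.538 and 3.35 (median 2.32), so that 1 mutant soleus library sat at the TA level. In each genotype 8 of 9 soleus values lay above the highest TA value. The log2 fold change of soleus against TA was 1.06 with an SE of 0.24 in WT (edgeR, adjusted p = 0.00022) and 1.45 with an SE of 0.24 in ∆Ig3-MuSK (adjusted p = 1.7e-06). With the mean log2 CPM of the adipocyte list as a covariate, a choice made after seeing the data, neither was called. The values were then 0.24 (edgeR, adjusted p = 0.16) and 0.19 (edgeR, adjusted p = 0.373). This mean was itself higher in most soleus than in most TA libraries, so the covariate takes up part of the muscle difference. The part of fat cells in the Car5b difference was not tested. Without WT soleus libraries 1 and 2, and without the covariate, the WT value was 0.86 (edgeR, adjusted p = 0.0011).

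The adipocyte list holds 10 genes, among them Adipoq, Plin1 and Cidec. Its summed level ran from 345.9 to 458.0 CPM in WT TA, 288.4 to 735.3 in ∆Ig3-MuSK TA, 469.7 to 796.3 in WT soleus and 474.3 to 777.3 in ∆Ig3-MuSK soleus, and no gene of the list was at 0 in any library. Most of this sum was Fabp4 and Plin4, at means of 188.9 and 149.2 CPM in WT TA. Plin4 was at 272.8 CPM in ∆Ig3-MuSK TA, while the means of Adipoq (3.43 and 2.54 CPM in WT and mutant TA) and Cfd (23.5 and 17.1 CPM) were lower there, so the sum does not follow every gene of the list; the mean log2 CPM used below weights the genes equally. Plin1 (2.00), Pck1 (1.92), Cidec (1.63) and Adipoq (1.39) were called higher in WT soleus than in WT TA on the log2 scale. The correlation of Car5b with the mean log2 CPM of the list within groups of 9 libraries was noticed in the data and then tested in the same libraries. It passed by Pearson's r in 3 of the 4 groups and by Spearman's rho in 2. The adjustment over 20 relations does not cover this choice, so the values are descriptions and nothing is read from the passes. Pearson's r was 0.89 in WT TA (exact permutation test over pairings, 2-sided, adjusted p = 0.0144), 0.66 in ∆Ig3-MuSK TA (exact, adjusted p = 0.153), 0.91 in WT soleus (exact, adjusted p = 0.0296) and 0.97 in ∆Ig3-MuSK soleus (exact, adjusted p = 0.000165), adjusted over 20 relations. Spearman's rho was 0.88, 0.75, 0.73 and 0.98 in the same order, with adjusted p of 0.0308, 0.102, 0.104 and 0.000992 by the same exact permutation test. Without the 2 libraries farthest from the median of the list, r was 0.95, 0.79, 0.64 and 0.97, so in WT soleus the value rested partly on those 2. WT soleus library 1 had both the highest Car5b level and the highest sum, and ∆Ig3-MuSK soleus library 8, with the lowest soleus Car5b level, had the lowest sum of its group, 474.3 CPM.

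**Figure D3:**
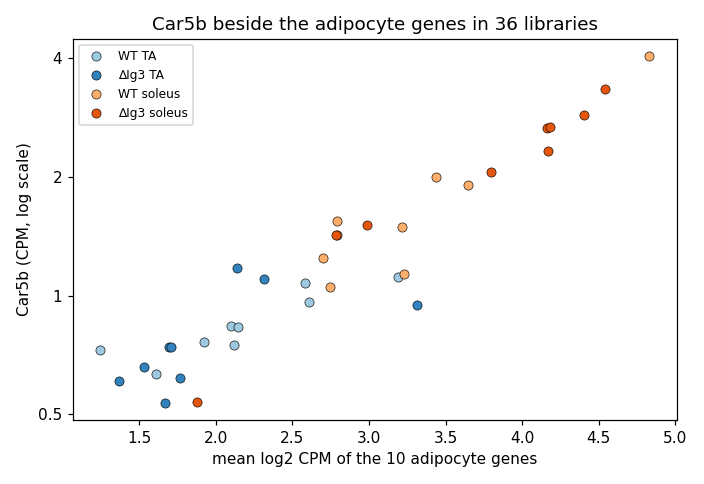
Car5b level (CPM, log scale) against the mean log2 CPM of 10 adipocyte genes, 1 point for each of the 36 libraries in 4 groups. Within each group the points run upwards (Pearson's r from 0.66 to 0.97), and the mutant soleus library at 0.538 CPM lies among the TA libraries on both axes.

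Car4, the enzyme of the capillary and membrane surface, ranged from 5.30 to 7.01 CPM in WT TA (median 6.06) and from 5.15 to 10.2 in ∆Ig3-MuSK TA (median 6.69). Of the mutant TA values, 3 lay above the highest WT value, at 9.08 CPM or more, 1 lay below the lowest, and the rest fell within the WT range. The log2 fold change was 0.29 with an SE of 0.11 (95% interval 0.059 to 0.53, unadjusted p = 0.0166), which did not pass after adjustment (edgeR, adjusted p = 0.164). In the soleus Car4 ranged from 3.54 to 6.01 CPM in WT (median 5.37) and from 4.98 to 8.26 in ∆Ig3-MuSK (median 6.03). The capillary endothelial list of 8 genes summed to 289.5 to 372.6 CPM in WT TA and 314.2 to 370.4 in ∆Ig3-MuSK TA, and to 371.3 to 499.8 in WT soleus and 349.5 to 445.4 in ∆Ig3-MuSK soleus. Of that list, 5 of 8 genes were called higher in WT soleus than in WT TA, among them Pecam1 (0.66 on the log2 scale), Kdr (0.76), Cdh5 (0.34) and Flt1 (0.56). The other 3 were not called, Tie1 at 0.20, Rgcc at 0.17 and Gpihbp1 at −0.23. Car4 itself was at −0.20 in that comparison (edgeR, adjusted p = 0.108) and at −0.26 in the mutants (adjusted p = 0.0355, below the 1.2-fold limit). DESeq2, at −0.27, and the block by label number, at −0.31, called Car4 lower in the mutant soleus, as did RLE and upper-quartile factors.

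Car14, the transmembrane enzyme, lay at 20.3 ± 3.59 CPM in WT TA, 18.8 ± 2.95 in ∆Ig3-MuSK TA, 22.1 ± 2.39 in WT soleus and 22.6 ± 2.49 in ∆Ig3-MuSK soleus (SD, n = 9). Its soleus and TA levels overlapped in both genotypes. The log2 fold change of soleus against TA was 0.14 in WT (95% interval −0.044 to 0.33, edgeR, adjusted p = 0.17) and 0.27 in ∆Ig3-MuSK (adjusted p = 0.0102). The second value lay at the 1.2-fold limit, and it was not called with upper-quartile factors (0.26), with label numbers as a block (0.23) or with the adipocyte score (0.27, adjusted p = 0.0743).

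Between genotypes in the TA, 0 of the 6 genes were called at an adjusted p under 0.05 and at least 1.2-fold, where edgeR called 0.0149% of 20075 genes. At an unadjusted p under 0.05, 2 of the 6 passed (Car4 and Car8), where 24.1% of all genes did. DESeq2 and limma-voom also called 0 of the 6, where they called 1.12% and 0.747% of genes. Car8 was at 6.75 ± 1.10 CPM in WT TA and 5.68 ± 1.10 in ∆Ig3-MuSK TA (SD, n = 9), a log2 difference of −0.24 with an SE of 0.11 (adjusted p = 0.202). The 95% intervals of the log2 fold change were −0.28 to 0.097 for Car2, −0.31 to 0.12 for Car14 and −0.43 to 0.23 for Car5b.

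In the soleus genotype comparison, given as a description, 0 of the 6 genes were called where edgeR called 0.952% of 19439 genes (0.365% higher and 0.586% lower). DESeq2 and limma-voom called 1 of the 6, Car3, where they called 2.34% and 3.36% of genes. Nothing is read from these counts because Car3 was chosen on this comparison. Next to Car3 at 0.48, the log2 differences were 0.29 for Car5b (SE 0.28), 0.22 for Car4 (SE 0.10), 0.07 for Car2 (SE 0.09), 0.02 for Car14 (SE 0.07) and −0.10 for Car8 (SE 0.08). The Car5b value was 0.53 without WT soleus library 1, 0.19 without ∆Ig3-MuSK soleus library 9 and −0.066 with the adipocyte score as a covariate. With the mean log2 CPM of the fast fiber list as a covariate, chosen after the data were seen, the Car3 difference was 0.29 with an SE of 0.11, and 0 genes of all were called. Between genotypes, the fast fiber genes themselves had a median log2 difference of 0.25 and the adipocyte genes one of 0.37. Each covariate can therefore take up part of the genotype difference. Without WT soleus libraries 1 and 2, the Car3 difference was 0.64 with an SE of 0.11. Car3 was then called, where 6.3% of genes were. These libraries hold the highest WT Car3 values, so leaving them out raises the difference by itself. The omission was also chosen after the data were seen, so nothing is read from this call.

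Between the muscles, 3 of the 5 genes other than Car3 were called in WT (Car2, Car5b and Car8), all higher in the soleus, where 57.5% of 20841 genes were called in either direction with 30.2% higher and 27.3% lower. In ∆Ig3-MuSK, 4 of the 5 were called higher (Car14 added), where 56.1% of genes were called, 28.5% higher and 27.6% lower. Their median log2 difference in WT was 0.62, beside 0.018 over all genes tested. The 2 comparisons used different libraries. TA and soleus libraries shared 8 label numbers in each genotype, but the study's legend states 1 muscle for each animal, so the muscles were compared as unpaired. Of these 8 TA libraries, 6 in the mutants and 1 in WT correlated best with the soleus library of their own number. Whether such pairs came from the same animal is not known. The difference between the genotype effects in the 2 muscles was called for 0 of the 5 by edgeR, which called 0% of all genes. Limma-voom called 0 of the 5 and 4.6% of 20841 genes, and DESeq2 0 of the 5 and 8.41% of 10170. DESeq2 gave an adjusted p only to those 10170 genes, and a gene without one counted as not called. Nothing is therefore read from the DESeq2 count. At an unadjusted p under 0.05, 0 of the 5 passed by edgeR, where 24.9% of genes did. For Car5b the difference between the genotype effects was 0.40 with an SE of 0.34 (edgeR, adjusted p = 0.469), and −0.049 with the adipocyte score as a covariate. For Car3 the difference was 0.46 with an SE of 0.18, a description only.

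**Figure D4:**
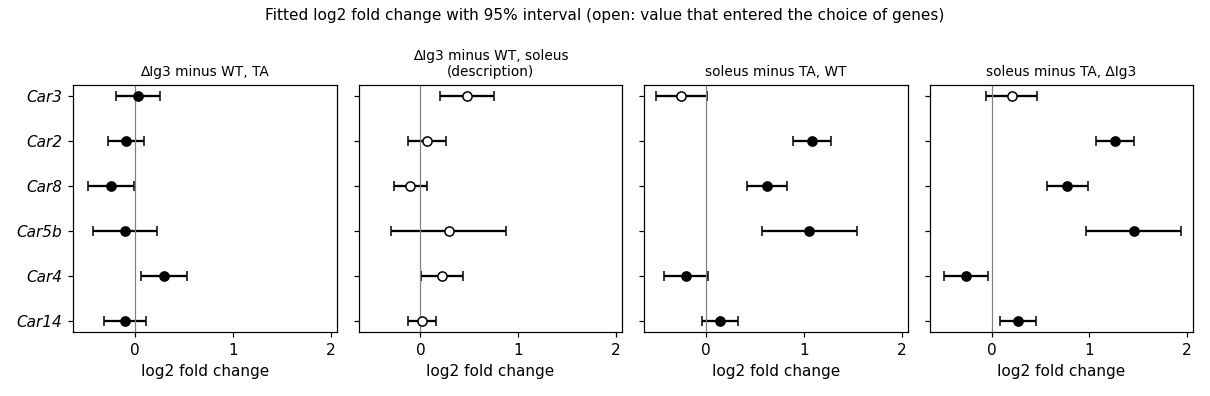
Fitted log2 fold change (point) with its 95% interval (bar) for the 6 genes in 4 comparisons, with open points for values that entered the choice of genes or follow from it. Car2, Car8 and Car5b lie to the right of 0 in both comparisons of soleus with TA, and Car3 reaches 0.48 in the soleus genotype comparison.

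Car3 was also set beside the marker lists from library to library. After the mean of each genotype was removed, its correlation across the 18 soleus libraries with the 10 fast fiber genes ran from 0.32 to 0.76 with a median of 0.59, with the slow fiber genes from −0.44 to 0.08 with a median of −0.19, and with 9 adipocyte genes above 1 CPM from 0.06 to 0.47 with a median of 0.23. These are descriptions over libraries that also share differences in depth and tissue makeup. Without WT soleus libraries 1 and 2, the medians were 0.14 for the fast fiber, 0.24 for the slow fiber and −0.11 for the adipocyte list, so the order of the lists rested on those libraries. The 9 ∆Ig3-MuSK soleus libraries had fast fiber sums of 29020 to 41027 CPM with a median of 33850, against 20281 to 44377 with a median of 26716 in WT. In the TA, the fast fiber list had a median r of 0.06 with Car3 and the slow fiber list one of 0.36.

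**Figure D5:**
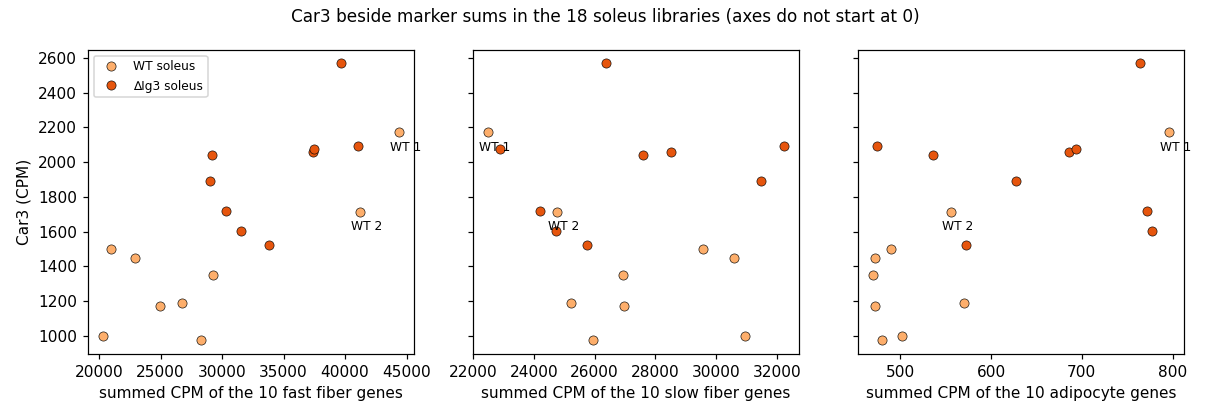
Car3 level (CPM) against the summed level of 10 fast fiber, 10 slow fiber and 10 adipocyte genes (CPM) in the 9 WT and 9 ∆Ig3-MuSK soleus libraries, with WT libraries 1 and 2 named. These libraries, at 44377 and 41196 CPM on the fast fiber axis, have the highest Car3 values of WT.

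Within groups of 9, the correlations fixed for Car3 with the adipocyte and slow fiber lists, Car4 with the capillary list and Car2 with the erythroid list gave no adjusted p below 0.05 among 16 (exact permutation test over pairings, 2-sided, smallest adjusted p = 0.367 by Pearson and 0.204 by Spearman). The largest was Car3 with the slow fiber list in ∆Ig3-MuSK TA, at Pearson's r = 0.68 and Spearman's rho = 0.77, and r = 0.64 without the 2 libraries farthest from the median of the list. Car3 with the adipocyte list in WT soleus reached r = 0.67, and −0.029 without the 2 farthest, so it rested on those. The other marker lists in the soleus were the macrophage list of 5 genes, summed to 35.3 to 81.2 CPM in WT and 11.9 to 58.5 in ∆Ig3-MuSK, and the Schwann cell and nerve list of 5 genes, at 36.1 to 59.0 and 35.1 to 86.6. Between genotypes, edgeR called 0 genes of the marker lists in either muscle. In the soleus, DESeq2 and limma-voom both called Kdr lower and Nefl higher in ∆Ig3-MuSK, and limma-voom also called Atp2a1 of the fast fiber list higher. There the 2 tools called 2.34% and 3.36% of all genes. Nothing about the cell makeup is read from these counts.

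The genes whose levels were most like those of Car3 were ranked in each muscle. In the TA, among 15297 genes at 1 CPM or more, the highest correlations after removal of group means were those of Echs1 (0.85), Asb11 (0.83), Fdft1 (0.82), Gm13910 (0.81) and Hadh (0.81), and the lowest those of Tead4 (−0.85) and Cemip2 (−0.84). Echs1 and Hadh encode enzymes of mitochondrial fatty acid oxidation and Fdft1 an enzyme of sterol synthesis. In the soleus, among 15523 genes, they were Bnip3l (0.92), Tk1 (0.90), Rpa1 (0.90), Pts (0.88) and H3f3a-ps2 (0.85), and the lowest were Npr3 (−0.86) and Fkbp11 (−0.78). Bnip3l encodes a mitochondrial receptor of mitophagy, Tk1 a thymidine kinase and Rpa1 a single-strand DNA binding protein, while H3f3a-ps2 is named as a pseudogene, whose reads may come from its parent gene. Over both muscles and 36 libraries, Qars (0.75), Fdft1 (0.72), Ufsp2 (0.70), Rpa1 (0.70) and Utp3 (0.70) were highest. The lists of each muscle are over 18 libraries, and among so many genes the highest values carry no test. Of the other 5 carbonic anhydrases, Car2 had a correlation of 0.33 with Car3 in the soleus and 0.32 in the TA, and Car8 one of −0.33 and 0.20.

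Of the 10 other carbonic anhydrases, 7 passed the filter in the 36-library fit, and Car5a, Car6 and Car10 did not, with at most 3, 2 and 8 counts in a library. Car11, a relative without catalytic activity, was much lower in the soleus, at 6.49 ± 0.782 CPM in WT TA and 1.38 ± 0.269 in WT soleus, a log2 difference of −2.21 with an SE of 0.10 (edgeR, adjusted p = 2.1e-20). Car1, the red blood cell enzyme, was lower by 1.30 on the log2 scale (adjusted p = 1.9e-05) and Car7 by 0.29 (adjusted p = 0.0281). Car9, a hypoxia-inducible membrane enzyme, was higher in WT soleus by 1.12 (adjusted p = 8.9e-08) and Car13 by 0.68 (adjusted p = 0.0113). Car12 (−0.39) and Car15 (0.11) did not pass. In the mutants Car9 (1.17), Car13 (0.68), Car11 (−2.03) and Car7 (−0.51) were called, and Car1 (−0.32, adjusted p = 0.228) was not. Car15, Car9 and Car5a overlap exons of other genes, so their reads are uncertain. Between genotypes, edgeR called 0 of 7 in the TA and 0 of 6 in the soleus, where it called 0.0149% and 0.952% of all genes. In the TA, 0 of the 7 had an unadjusted p under 0.05, where 24.1% of all genes did. Limma-voom called 1, Car1, in the soleus, where it called 3.36% of all genes. Car1 had 2 to 18 counts in WT soleus libraries and 12 to 24 in ∆Ig3-MuSK soleus libraries (log2 fold change 0.77, adjusted p = 0.139).

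Of 25 genes of acid-base and carbon dioxide transport, 21 were tested between the muscles in WT, and 7 were called higher and 7 lower in the soleus (median log2 difference 0.13, beside 0.018 over all genes), where 30.2% of all genes were called higher and 27.3% lower. Slc16a3, a lactate exporter of glycolytic fibers, was at −3.41 on the log2 scale (SE 0.18, edgeR, adjusted p = 3.1e-19), and Slc16a1, a lactate importer of oxidative fibers, was higher by 1.12 (adjusted p = 3.8e-15). Slc4a7, a sodium bicarbonate cotransporter, was higher by 1.51 (adjusted p = 1.4e-21) and Slc9a2, a sodium proton exchanger, by 0.94 (adjusted p = 1.9e-15). Between genotypes, edgeR called 0 of 21 in the TA (median 0.038) and 0 of 20 in the soleus (median 0.030). Of all genes it called 0.0149% and 0.952%. In the TA, 8 of the 21 had an unadjusted p under 0.05, where 24.1% of all genes did. Slc4a8, a bicarbonate transporter, had the smallest p of the list in each: its log2 fold change was 0.97 in TA (adjusted p = 0.135) and 0.65 in soleus (adjusted p = 0.109). DESeq2 called it higher in both muscles and limma-voom in the soleus, together with Aqp4. Aqp1 (0.04 and 0.07) and Bsg (−0.19 and 0.07), the most abundant of the list, did not pass either.

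Of 13 BMP and MuSK-BMP target genes, 0 were called between genotypes in either muscle by edgeR, DESeq2 or limma-voom. In that order, the tools called 0.0149%, 1.12% and 0.747% of all genes in the TA. In the soleus they called 0.952%, 2.34% and 3.36%. At such shares, 0 of 13 is not read as a result about these genes. Their medians were −0.047 in the TA and −0.078 in the soleus. In the TA, 2 of the 13 had an unadjusted p under 0.05 by edgeR, where 24.1% of all genes did. Id1, a BMP target, was at −0.03 and −0.33 (adjusted p = 0.89 and 0.563) and Wnt11 at −0.12 in the TA (adjusted p = 0.191). Between the muscles in WT, 7 were called lower and 1 higher in the soleus, where 27.3% and 30.2% of all genes were, with Smad6 and Smad7, inhibitors of BMP signaling, at −0.66 and −0.39. Of the cell type lists, 8 of 10 adipocyte, 5 of 8 capillary endothelial, 3 of 5 erythroid and 1 of 5 macrophage genes tested were called higher in WT soleus, where 30.2% of all genes were, and 1 of 5 Schwann cell and nerve genes lower (Nefl, −0.98).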

How the data were processed

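RNA-seq of 36 whole muscles was used. According to the submitters' processing notes and the paper's methods, the authors trimmed reads with Trimmomatic, aligned them with GSNAP to mm10 (GRCm38) and counted them per gene with htseq-count. They deposited raw, non-stranded counts, as whole numbers without a filter, in 2 tables of Ensembl gene IDs; the annotation release and counting mode are not given in the sources used here. Symbols, coordinates and exon lengths came from GENCODE M21 (51633 of 51912 IDs). Sequences are those of its principal transcripts. 0 columns belonged to other samples.

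Genes were tested in R 4.3.3 with edgeR 4.0.16: filterByExpr (minimum count 10, minimum total 15), TMM factors, glmQLFit and glmQLFTest, Benjamini-Hochberg over all genes, with calls at an adjusted p under 0.05 and at least 1.2-fold. Genotypes were fitted within each muscle, and muscles and the genotype-by-muscle term in 1 fit over 36 libraries. CPM uses TMM factors over 36 libraries, and log2 CPM a prior count of 2. Replicates of a group are separate libraries with separate label numbers, and p-values measure the spread between these samples. TA and soleus libraries shared 8 label numbers in each genotype and were fitted as unpaired, with a block by label number as an alternative.

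Depth ranged from 43492062 to 78660422 counts per library. Alternatives were DESeq2 1.42.0, limma-voom with quality weights (limma 3.58.1), RLE and upper-quartile factors, other filters, robust fits, no fold limit, blocks by replicate or label number, covariate scores and each library left out. The procedures were tested on simulated data. The members and lists were chosen with earlier results of these data known. Named genes are the 6 genes, Musk, the other carbonic anhydrases, from each list up to 4 called genes (or the 2 most abundant and the 2 with the smallest p), and the genes most and least like Car3. Of the marker lists, genes beside a carbonic anhydrase result are printed and the rest are given as counts. The result of 1 gene that this rule names is not reported here.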

Additional observations from a re-analysis of the deposited data

Results flagged for a closer look

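Among 24 sets of 9 libraries (6 genes in 4 groups), 4 held a library whose gap to its nearest neighbor divided by the whole range exceeded Dixon's 95% critical value, where chance gives about 1 in 20. Car5b was at 4.04 CPM in WT soleus library 1, above 1.05 to 2.00 in the others, and this library also had the highest adipocyte sum. Car3 was at 2374 CPM in ∆Ig3-MuSK TA library 2, above 1311 to 1788 in the others. Car2 was at 8.48 CPM in ∆Ig3-MuSK TA library 3, above 5.01 to 6.75. Car4 was at 3.54 CPM in WT soleus library 6, below 4.98 to 6.01.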

How the results depend on the processing

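In the soleus genotype comparison, 1 of the 6 genes, Car3, was called under DESeq2, limma-voom, the replicate block, the single fit over 36 libraries and without both WT soleus libraries of high fast fiber sum, and 0 to 1 when single libraries were left out, where it was called without WT soleus library 1 or 2. Its log2 fold change ranged from 0.42 to 0.58 with single libraries left out and was 0.50 with the replicate block. WT soleus libraries 1 and 2 hold the highest WT Car3 values, so leaving them out raises the difference by itself. Nothing is read from the calls made without them. In the TA 0 were called with each library left out and with the block. WT and mutant libraries of one replicate number differ in label number: 3 of 9 pairs in each muscle had a correlation of deviations over 0.1, and 1 of 9 libraries correlated best with its own number. Of label numbers shared by TA and soleus libraries, 4 of 8 WT and 7 of 8 mutant pairs did, 1 and 6 correlating best with their own number, and that block kept 3 members called in WT and 0 in the genotype-by-muscle test.

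Some signs turned. Car3 in the TA ranged from −0.036 to 0.097 with libraries left out, with −0.0092 without WT TA library 8. Car14 in the soleus genotype comparison ranged from −0.0097 to 0.051, with −0.0065 without mutant library 6, and was −0.037 with the fast fiber score. Car5b turned from 0.29 to −0.066 there and from 0.40 to −0.049 in the genotype-by-muscle test with the adipocyte score, and ranged from 0.19 to 0.53 in the soleus with libraries left out; Car4 was 0.029 in that test by limma-voom. In ∆Ig3-MuSK soleus against TA, 2 genes in place of 4 were called with the adipocyte score. Of the 5 genes most like Car3, Spearman's rho kept 1 in the TA, 2 in the soleus and 2 over both muscles, and 3 remained without WT soleus library 1 and also without libraries 1 and 2. Counts over all genes moved more: in the TA 3 rose and 0 fell in the edgeR fit, against 169 and 67 by DESeq2, 120 and 30 by limma-voom and 485 and 207 in the single fit over 36 libraries. In the soleus 71 rose and 114 fell, against 165 and 324, 263 and 390, and 119 and 193 in the same order, 91 and 256 with the replicate block, 484 and 756 without both libraries, 20 and 17 with the adipocyte score and 0 with the fast fiber score. The cause was not tested. Depth limits Car5b, Car1 and the carbonic anhydrases below the filter.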
